A study of Mus musculus with 15 samples.

Results

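The 37 genes of the mouse mitochondrial genome were examined in whole-brain RNA of young and old male C57BL/6J wildtype mice. They are every gene that the deposited count files place on chromosome MT, out of 43629 genes in all. No measured value decided which genes are members, but the choice to describe this chromosome was made with earlier results of these data known. The 37 genes comprise 13 protein-coding genes, 2 ribosomal RNA (rRNA) genes and 22 transfer RNA (tRNA) genes. One diet group ate freely (AL, ad libitum), and the other was given food for a day and none on the next (EOD, every-other-day feeding), starting at 2 months of age. There were 4 AL and 3 EOD mice labelled as 3 months old (young) and 4 AL and 4 EOD mice labelled as 24 months old (old), with one library per mouse. The young EOD mice had therefore been on the diet briefly, whereas the old EOD mice had been on it for most of life. The comparisons ask how each gene and each class differed with age on either diet and with diet at either age.

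Mitochondrial DNA is transcribed from both strands as long precursor RNAs that span many genes. The precursors are cut mostly at the tRNAs lying between the other genes, which releases tRNAs, rRNAs and messenger RNAs that then mature and decay at their own rates. The messenger RNAs encode core subunits of the respiratory chain and of ATP synthase, the rRNAs form the scaffold of the mitochondrial ribosome, and the tRNAs decode the messages. Brain is rich in mitochondria, and these RNAs are abundant in it. Most mitochondrial messenger RNAs carry short poly(A) tails and the rRNAs carry fewer adenines still, so that their share of a library depends on how it is made. The sources used here do not state whether poly(A) selection or rRNA depletion was used.

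Total counts on genes ranged from 5198748 to 13610729 per mouse, and the file headers name 3 sequencing lanes, of which the third held no young EOD mouse. Young AL mouse 3 stood apart, with 17280 genes detected against 19054 to 20880 in the other mice although its total was the highest. The differences with age in AL mice that passed the test are given with and without it. Levels are given in CPM, counts per 1000000 of the scaled library total. The neuron markers Snap25, Syt1 and Rbfox3 summed to between 5217 and 6952 CPM in the 15 mice. The pituitary markers Gh, Prl and Pomc summed to between 0.616 and 982 CPM, the highest sum belonging to old AL mouse 4. Changes in the number of cells of a type and changes in RNA per cell cannot be told apart in such bulk RNA.

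Of the 37 genes, 28 had a count in at least 1 mouse and 22 had enough counts to be tested, namely 7 protein-coding, both rRNA and 13 tRNA genes. The other 6 protein-coding genes received 8 counts in all 15 mice together. No count fell on mt-Co2 or mt-Co3, which encode subunits of cytochrome c oxidase, or on mt-Nd4l, which encodes a subunit of complex I. One count fell on mt-Atp8 and 1 on mt-Atp6, the ATP synthase subunit genes, and 6 fell on mt-Nd3, another complex I subunit gene, with at most 3 in a mouse. A total of 3 counts, the limit that a count of 0 allows, would correspond to between 0.22 and 0.577 CPM depending on the mouse, for counting error only.

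These near-empty genes lie in one stretch of the mitochondrial genome that has a copy on chromosome 1. In GRCm38, 7 pseudogenes at chr1:24611535-24616197 on the minus strand follow one another in the order of their mitochondrial counterparts between MT 6390 and MT 11042. The distance between neighbours was the same in both places for 5 of 6 pairs, for example 233 bases from the end of the mt-Co2 match to mt-Atp6. It differed by 1 base, 73 against 74, between mt-Nd3 and mt-Nd4l, the interval in which mt-Tr, the arginine tRNA gene, lies. Sequences of the annotated transcripts (GENCODE M21, whose coordinates of all 37 genes and all 7 pseudogenes equal those of the deposited files) show how close the copy is, and the start of mt-Nd3 and a part of mt-Co1 are shown beside their copies because they hold the only 2 base differences found in the aligned parts of the 7 genes. Capitals mark the differing base.
mt-Nd3 (MT:9459-9518, plus strand): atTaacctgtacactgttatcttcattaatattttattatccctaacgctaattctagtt
Gm28438 (chr1:24613060-24613119, minus strand): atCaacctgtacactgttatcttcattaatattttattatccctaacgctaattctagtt
mt-Co1 (MT:6390-6449, plus strand): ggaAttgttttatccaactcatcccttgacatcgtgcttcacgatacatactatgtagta
Gm29216 (chr1:24616129-24616188, minus strand): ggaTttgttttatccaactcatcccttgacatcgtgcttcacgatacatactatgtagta
mt-Co2 (MT:7013-7072, plus strand): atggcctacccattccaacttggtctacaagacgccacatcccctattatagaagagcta
Counted from the first base of the mitochondrial gene, with the mitochondrial base first, the differences are T3C in mt-Nd3 and A1066T in mt-Co1. The first 681 bases of mt-Co2, whose start is the last sequence above, are identical in its copy Gm28661, as are the aligned parts of mt-Atp6, mt-Co3, mt-Nd4l and mt-Nd4.

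Because the reads were 50 bases long, each gene was cut into all its stretches of 50 bases, and each stretch was looked up in the transcripts of the other annotated genes. All stretches of mt-Co2 (100%), 99.9% of mt-Co3, 99.5% of mt-Atp6, 98.8% of mt-Nd4l and 98% of mt-Nd3 occurred exactly in another gene. For mt-Nd4 this held for 62.2% and for mt-Co1 for 51.1%, and these 2 genes held at least 2528 CPM in every mouse. It held for 8.2% of mt-Nd2, for 7.6% of mt-Nd5, for 1% of mt-Rnr2 and for none of mt-Rnr1, mt-Nd1, mt-Nd6 and mt-Cytb. mt-Atp8 and mt-Tr also shared no stretch with an annotated transcript although both lie inside the copied span. mt-Atp8 was nearly empty, whereas mt-Tr had 304 counts, 9 to 44 per mouse. The 4 other tRNA genes within the span (mt-Ts1, mt-Td, mt-Tk and mt-Tg) had no count in any mouse.

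**Figure D1:**
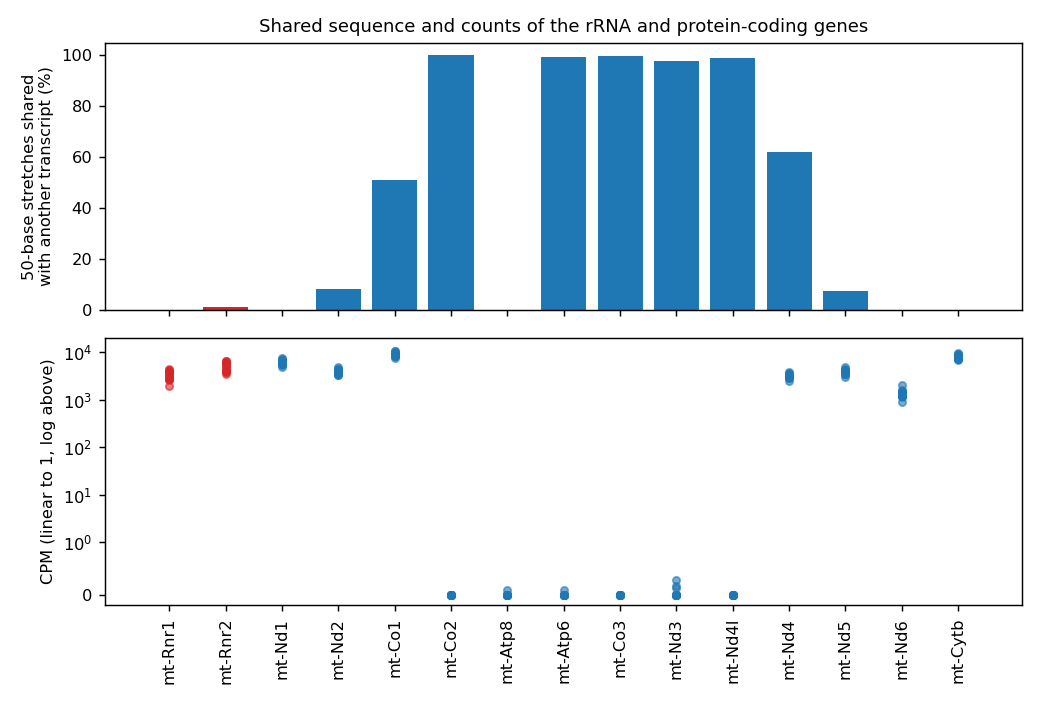
For each mitochondrial protein-coding and rRNA gene, the percentage of its 50-base stretches that occur exactly in a transcript of another gene, and its level in CPM in each of the 15 mice. The 5 genes that share 98% or more of their stretches, and mt-Atp8, which shares none with an annotated transcript, were at or near 0, and the other 9 genes were between 913 and 10492 CPM.

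The pseudogenes themselves held 0 to 13 counts per mouse each. The authors kept primary alignments with a mapping quality of at least 5, so that an alignment placed equally well in both genomes would not be counted on either. Whether reads of the 6 genes were dropped in this way was not tested, since reads were not analysed here. A count near 0 for these genes is therefore a count after that filter. The counts of mt-Co1 and mt-Nd4 are uncertain in level for the same reason.

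Mitochondrial genes together took between 3.62% and 5.28% of all counts, and the classes differed with age in size. Nearly all protein-coding counts came from the 7 tested of the 13 genes. The protein-coding share is therefore that of genes holding counts after the mapping-quality filter. The protein-coding share was 3.37% ± 0.298 (SD, n = 4) in young AL, 3.50% ± 0.211 (n = 3) in young EOD, 3.71% ± 0.34 (n = 4) in old AL and 3.61% ± 0.458 (n = 4) in old EOD mice. These groups overlapped, with single mice between 2.94% and 3.74% when young and between 3.23% and 4.20% when old. The rRNA share was 0.656%, 0.654%, 0.522% and 0.663% in the young AL mice and 0.738%, 0.8003% and 0.695% in the young EOD mice. It was 1.07%, 0.839%, 1.001% and 0.9205% in the old AL mice and 0.983%, 0.999%, 1.06% and 1.05% in the old EOD mice. Every old mouse lay above every young mouse, and every young EOD mouse lay above every young AL mouse.

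The old mean of the rRNA share exceeded the young mean by 0.334 percentage points in AL mice (53.5% of the young mean) and by 0.281 points in EOD mice (37.7%). Without young AL mouse 3, the difference in AL mice was 0.300 points. Within lanes, it was 0.414, 0.398 and 0.257 points in AL mice in lanes 1, 2 and 3, and 0.245 and 0.251 points in EOD mice in lanes 1 and 2. The lane 2 value in AL mice rests on young AL mouse 3, the only young AL mouse in that lane. The tRNA share was far smaller, between 0.00983% and 0.0151% in young and between 0.0114% and 0.0170% in old mice, and overlapped between the ages. These sums over genes are given as descriptions, with no test.

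**Figure D2:**
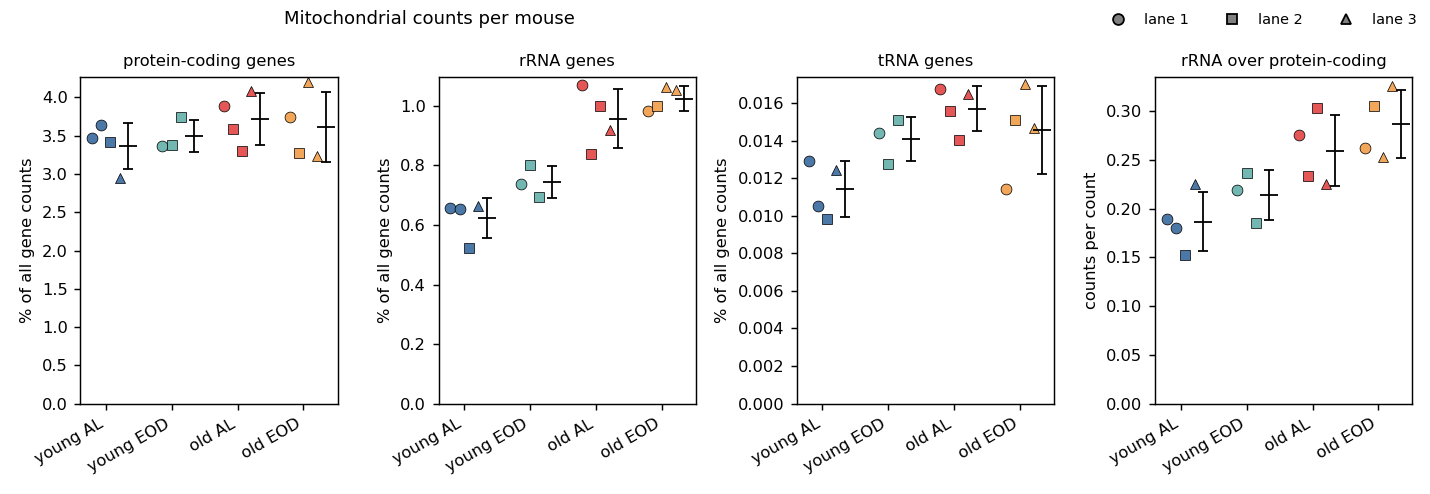
Share of all counts taken by mitochondrial protein-coding, rRNA and tRNA genes (percent) and rRNA counts per protein-coding count, for each of the 15 mice, with the marker shape giving the lane and the dash and bars the group mean ± SD. The rRNA share lay between 0.522% and 0.8003% in young and between 0.839% and 1.07% in old mice, whereas the protein-coding shares of the groups overlapped.

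The rRNAs were also set against the protein-coding counts of the same library, which stand for 7 of the 13 messenger RNAs. The rRNA counts per protein-coding count were 0.189, 0.180, 0.153 and 0.225 in young AL mice and 0.275, 0.234, 0.303 and 0.226 in old AL mice. They were 0.219, 0.237 and 0.186 in young EOD mice and 0.262, 0.305, 0.254 and 0.326 in old EOD mice. Old and young mice did not overlap within either diet, although the lowest old AL mouse barely exceeded the highest young AL mouse, and both of these mice were in lane 3. The old to young ratio of this value in AL mice was 1.49 in lane 1 and 1.75 in lane 2, and in lane 3 both AL mice had 0.225 or 0.226 counts. The only young AL mouse in lane 2 was young AL mouse 3. Over all mice, the highest young value of 0.237 exceeded the lowest old value of 0.226. The ratio of mt-Rnr2 to mt-Rnr1 counts lay between 1.43 and 1.77.

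Both rRNAs rose with age. They lie next to each other near the start of the plus-strand transcript, with a tRNA gene before each, and their first 100 bases are shown because they identify the RNAs whose increase passed the test.
mt-Rnr1 (MT:70-169, plus strand): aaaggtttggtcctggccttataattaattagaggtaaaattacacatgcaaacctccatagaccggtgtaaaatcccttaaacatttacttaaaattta
mt-Rnr2 (MT:1094-1193, plus strand): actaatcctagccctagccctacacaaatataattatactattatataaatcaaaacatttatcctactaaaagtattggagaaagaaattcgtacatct
mt-Rnr1 (ENSMUSG00000064337, MT 70 to 1024) encodes the 12S rRNA of the small ribosomal subunit and mt-Rnr2 (ENSMUSG00000064339, MT 1094 to 2675) the 16S rRNA of the large subunit. Both are noncoding genes of a single exon.

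mt-Rnr1 was at 2544, 2668, 1941 and 2668 CPM in the young AL mice and at 4109.5, 3266, 3959 and 3706 CPM in the old AL mice. In EOD mice it was at 3028, 3248 and 2773 CPM when young and at 3890.0, 3913, 4229 and 4329.9 CPM when old. All 8 old mice lay above all 7 young mice, and the nearest were young EOD mouse 2 and old AL mouse 2. On the log2 scale mt-Rnr1 was higher in old mice by 0.62 (SE 0.0904, FDR 0.000617) in AL, by 0.44 (SE 0.0982, FDR 0.0781) in EOD and by 0.53 (SE 0.0668, FDR 5.55e-05) averaged over diets. FDR is the p-value of edgeR's quasi-likelihood test adjusted by Benjamini-Hochberg over the 15864 genes tested, with 0.1 as the threshold, and it sets a difference against the spread between these mice.

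mt-Rnr2 was at 4034, 3867, 3427 and 3875 CPM in the young AL mice and at 6628, 5068, 5882 and 5510.2 CPM in the old AL mice. In EOD mice it was at 4462, 4839 and 4124 CPM when young and at 5968, 5923, 6606 and 6193 CPM when old. Again no old mouse was as low as any young mouse. The log2 differences were 0.60 (SE 0.0769, FDR 0.000112) in AL, 0.46 (SE 0.0835, FDR 0.0134) in EOD and 0.53 (SE 0.0568, FDR 6.63e-06) averaged over diets, each within 1 SE of the value for mt-Rnr1.

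Young AL mouse 3 had the lowest level of both rRNAs. Without it, the increase in AL mice was 0.52 (FDR 0.000734) for mt-Rnr1 and 0.56 (FDR 0.000508) for mt-Rnr2, and averaged over diets it was 0.48 (FDR 1.35e-05) and 0.52 (FDR 1.04e-05). With lane as a term, the increases in AL mice were 0.66 (FDR 0.00037) and 0.63 (FDR 0.00014), and those in EOD mice were 0.36 (FDR 0.353) for mt-Rnr1 and 0.43 (FDR 0.0546) for mt-Rnr2. The call of mt-Rnr1 in EOD mice rested on the set of mice, since it held in 7 of 15 fits that left out 1 mouse each. It was lost without young AL mouse 1, any of the 3 young EOD mice or any of the 4 old EOD mice, with FDR between 0.104 and 0.423, while the log2 difference stayed between 0.38 and 0.50. That of mt-Rnr2 in EOD mice held in 13 of 15 and was lost without young EOD mouse 1 (FDR 0.109) or 3 (FDR 0.143).

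**Figure D3:**
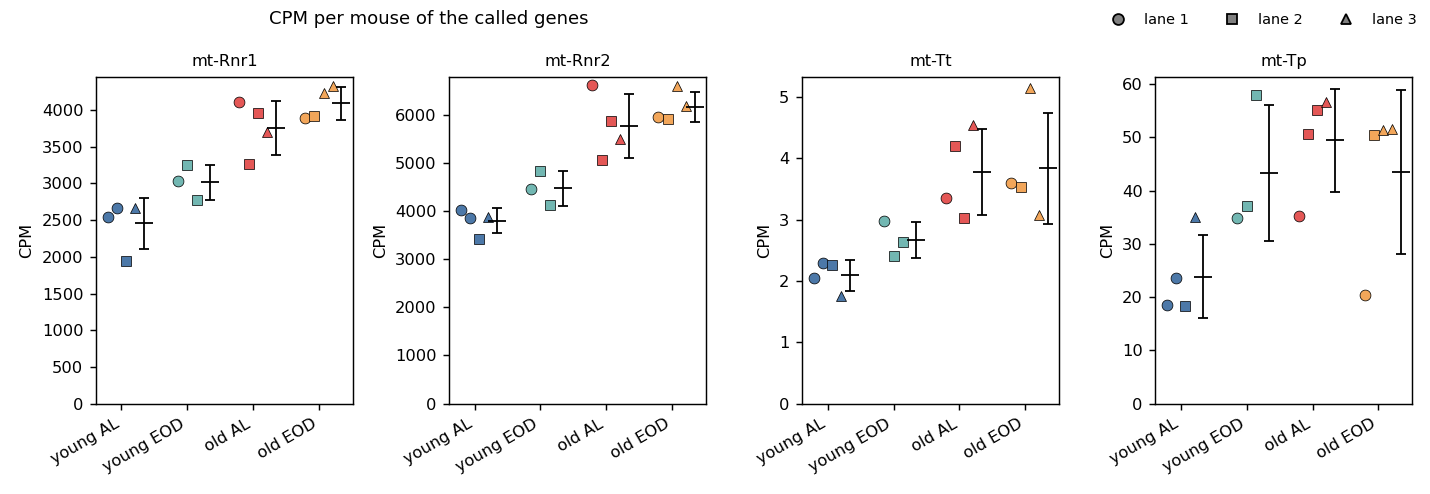
Level in CPM of mt-Rnr1, mt-Rnr2, mt-Tt and mt-Tp in each of the 15 mice, with the marker shape giving the lane and the dash and bars the group mean ± SD. For mt-Rnr1, mt-Rnr2 and mt-Tt every old mouse lay above every young mouse, whereas for mt-Tp old EOD mouse 1 lay at 20.4 CPM among the young AL mice.

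Other RNAs that a library may capture differently from ordinary messenger RNAs were measured beside the rRNAs. Of 11 names listed as indicators of RNA without a poly(A) tail or of nuclear rRNA sequence, 10 were matched and 6 were tested. Whether each of them lacked a poly(A) tail in these libraries was not tested. None of the 6 was called higher with age, and the histone gene Hist1h1c fell by 0.46 (FDR 0.0621) averaged over diets. The log2 differences of 5 of the 6 were above 0 with age in AL mice (median 0.13) and averaged over diets (median 0.17), and those of 3 of the 6 in EOD mice (median 0.10). Their summed level was 2207 to 4570 CPM in young AL, 2360.2 to 3802 CPM in young EOD, 2735 to 6538 CPM in old AL and 2408 to 4372 CPM in old EOD mice, so that the ages overlapped, and the part of these RNAs in the rRNA increase was not tested. The most abundant, Gm42418, which overlaps nuclear rRNA sequence, ranged from 1586 to 5679.6 CPM, and its log2 difference was 0.15 (SE 0.272, FDR 0.908) in AL mice and 0.20 (SE 0.201, FDR 0.759) averaged over diets.

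Among the cell type markers, Gfap, the intermediate filament of astrocytes, rose by 1.22 (FDR 1.71e-09) in AL and by 1.10 (FDR 1.26e-07) in EOD mice, and it was the only one of the 3 astrocyte markers called. The summed astrocyte markers were at 407 to 506 CPM in young AL and 431 to 499 CPM in young EOD mice, against 644 to 742 CPM in old AL and 573 to 705 CPM in old EOD mice. Of the 3 oligodendrocyte markers, the myelin gene Mbp rose by 0.39 (FDR 0.0515) in AL mice and by 0.29 (FDR 0.0346) averaged over diets. The oligodendrocyte sums were 4491 to 5319 CPM in young AL, 4948 to 5356 CPM in young EOD, 5303 to 5920.3 CPM in old AL and 5092 to 5759 CPM in old EOD mice. Of the 3 microglia markers, Cx3cr1 rose by 0.23 (FDR 0.0728) and Csf1r by 0.20 (FDR 0.0605) averaged over diets, and the sums were 171 to 186 CPM in young against 185 to 215 CPM in old mice. No marker of neurons, endothelium, choroid plexus or red blood cells passed the test with age, and no marker of these lists was absent from the files. All 3 choroid plexus markers were above 0 in log2 difference on both diets, with medians of 0.32 in AL and 0.57 in EOD mice, and so were all 5 red blood cell markers, with medians of 0.27 and 0.68. The choroid plexus sums were 311 to 924 CPM in young and 573 to 1192 CPM in old mice, and the red blood cell sums were 28 to 50 CPM in young and 42.1 to 101 CPM in old mice, so that the ages overlapped. Of the 3 pituitary markers, Gh (FDR 0.0188) and Prl (FDR 0.0779) passed the test in AL mice, with Gh at 888 CPM in old AL mouse 4, at 14.9 CPM in old AL mouse 3 and at no more than 4.70 CPM in the others. The part of these cell types in the rRNA increase was not tested.

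In all, 3 of the 22 mitochondrial genes tested passed the test for age in AL mice, against 1.09% of all genes tested (173 of 15864). These were both rRNAs and mt-Tp, and all 3 were higher in old mice. For age in EOD mice it was 2 of 22, both rRNAs, against 0.29% of all genes (46 of 15864). For age averaged over diets it was 3 of 22, both rRNAs and mt-Tt, against 2.3% of all genes (365 of 15864). DESeq2 called 3, 2 and 3 mitochondrial genes in these comparisons. The levels of 3 of 22 genes did not overlap between all old and all young mice, against 0.901% of all genes.

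The median log2 difference with age in AL mice was 0.61 for the rRNAs, 0.43 for the tRNAs and 0.13 for the protein-coding genes, beside -0.01 for all genes tested. In EOD mice the medians were 0.45, 0.12 and 0.05, beside 0.00 for all genes. Averaged over diets they were 0.53, 0.31 and 0.08. The 13 tested tRNAs differed widely with age in AL mice, from -1.23 for mt-Tl2 (FDR 0.347) to 1.05 for mt-Tp. Of these, 11 were above 0 and 2 below. At an unadjusted p under 0.05 there were 7, with mt-Tl2 among them, and 1 was called. mt-Tl2 had only 4 to 26 counts per mouse.

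**Figure D4:**
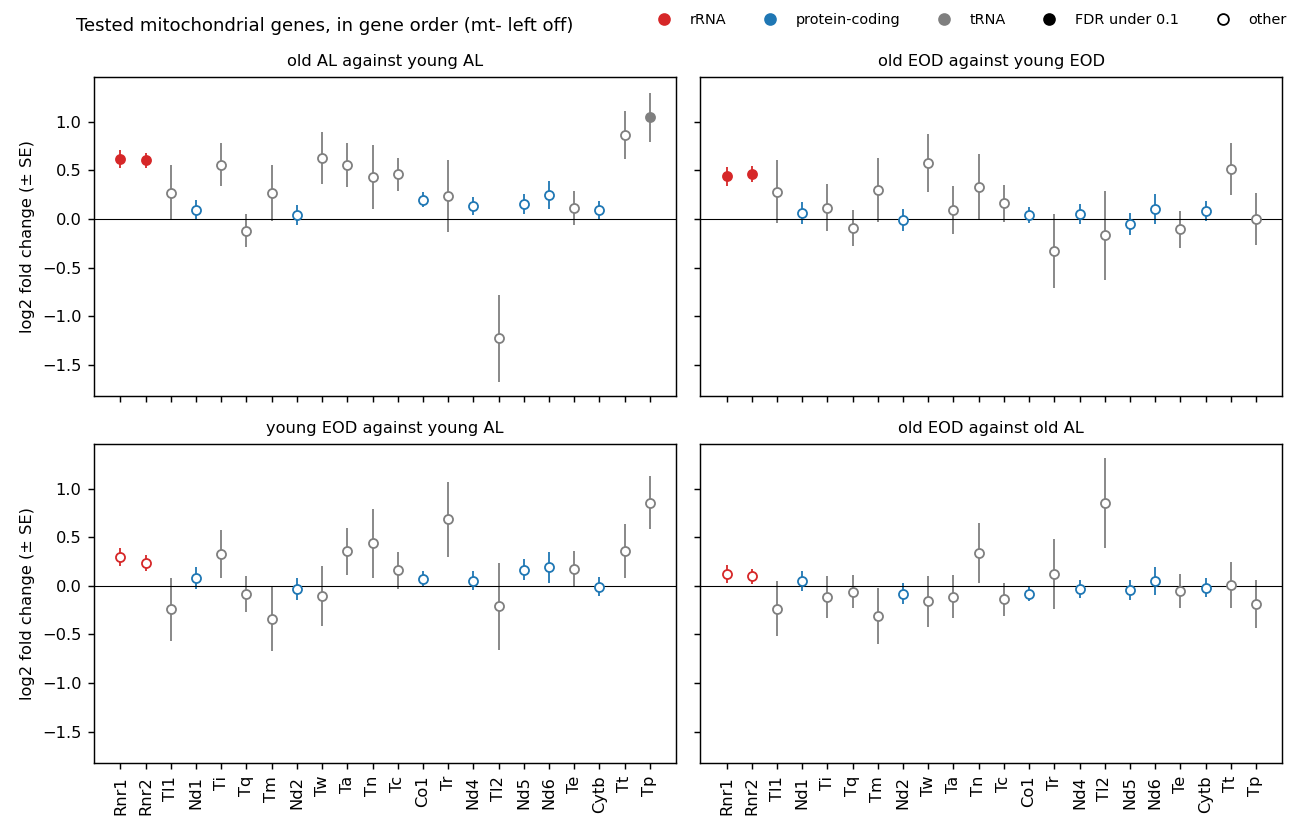
Log2 differences ± SE of the 22 mitochondrial genes tested, for age in AL mice, age in EOD mice, diet in young mice and diet in old mice, with filled symbols for FDR under 0.1 and colours for rRNA, protein-coding and tRNA genes. The rRNAs stood at 0.60 to 0.62 with age in AL mice, above all 7 protein-coding genes, which stood between 0.04 and 0.24.

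None of the 7 protein-coding genes that could be tested passed the test with age. They encode subunits of complex I (mt-Nd1, mt-Nd2, mt-Nd4, mt-Nd5 and mt-Nd6), cytochrome b of complex III (mt-Cytb) and the catalytic subunit of cytochrome c oxidase (mt-Co1). Counting error was small for them, with 6520 to 124593 counts per gene and mouse. In AL mice their log2 differences were 0.09 for mt-Nd1, 0.04 for mt-Nd2, 0.20 for mt-Co1, 0.13 for mt-Nd4, 0.16 for mt-Nd5, 0.24 for mt-Nd6 and 0.09 for mt-Cytb. The 95% intervals of the 7 spanned -0.17 to 0.53, and the lowest FDR was 0.363. One of the 7, mt-Co1, had an unadjusted p under 0.05 in this comparison, and DESeq2 called 0.

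mt-Co1, with the lowest FDR among them, was at 8873, 9101, 8214 and 7539 CPM in young AL mice and at 10492, 9219, 8561 and 10472 CPM in old AL mice. In EOD mice it was at 8900.0, 8693 and 8992 CPM when young and at 9813, 8475, 9770.3 and 8486 CPM when old. The ages overlapped on both diets. In EOD mice the log2 differences of the 7 genes lay between -0.05 and 0.10, with 95% intervals from -0.27 to 0.41 and FDR of at least 0.995, and averaged over diets they lay between 0.02 and 0.17, with FDR of at least 0.393. In EOD mice edgeR called 0 of the 7, with 0 at an unadjusted p under 0.05, and DESeq2 called 0.

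mt-Nd6 is the only protein-coding gene read from the minus strand, and only its last bases, MT 13552 to 13565, lie opposite the end of mt-Nd5. It was at 1151, 1429, 1213 and 913 CPM in young AL, 1240.3, 1187 and 1598 CPM in young EOD, 1387, 1462, 1233 and 1484 CPM in old AL and 1406, 1176, 2001 and 1182 CPM in old EOD mice. The groups overlapped, and old EOD mouse 3 was the highest. Its log2 difference with age was 0.24 (SE 0.145, FDR 0.637) in AL mice and 0.10 (SE 0.157, FDR 0.995) in EOD mice.

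The tRNA genes had few counts, and those on the minus strand had most of them. Of the 22 tRNA genes, 8 lie on the minus strand, and these took 80% to 85.2% of the tRNA counts of each mouse. The 5 highest were all minus-strand genes, with mean levels of 39.8 CPM for mt-Tp (proline), 23.9 for mt-Tq (glutamine), 22.9 for mt-Ta (alanine), 18 for mt-Te (glutamate) and 8.84 for mt-Tc (cysteine). The 7 other tested tRNA genes beside mt-Tt ranged from 0.586 to 12.9 CPM. No count fell on mt-Ty, mt-Ts1, mt-Td, mt-Tk, mt-Tg or mt-Th, and 3 others (mt-Tv, mt-Tf and mt-Ts2) had 2 to 65 counts over all mice. Counts on a tRNA gene do not tell mature tRNA from precursor RNA.

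A pair of neighbouring tRNA genes on opposite strands passed the test in 1 age comparison each. Their whole sequences are shown because they are the tRNAs called, and each is 67 bases long.
mt-Tt (MT:15289-15355, plus strand): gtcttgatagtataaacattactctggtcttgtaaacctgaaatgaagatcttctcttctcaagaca
mt-Tp (MT:15356-15422, minus strand): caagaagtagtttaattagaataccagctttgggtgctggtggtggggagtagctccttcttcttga
Since the counting used strand, reads from the 2 genes were kept apart.

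mt-Tt (ENSMUSG00000064371), the threonine tRNA gene that follows mt-Cytb, was at 2.05, 2.29, 2.27 and 1.76 CPM in young AL and 2.98, 2.41 and 2.63 CPM in young EOD mice. It was at 3.36, 4.20, 3.03 and 4.54 CPM in old AL and 3.60, 3.53, 5.16 and 3.08 CPM in old EOD mice. Old and young mice did not overlap, although these levels stand for only 14 to 56 counts per mouse. It rose by 0.69 on the log2 scale (SE 0.182, FDR 0.0624) averaged over diets, while the values of 0.87 (SE 0.247, FDR 0.142) in AL and 0.51 (SE 0.267, FDR 0.919) in EOD mice did not pass. With lane as a term, the averaged value was 0.66 (FDR 0.179). The call held in 9 of 15 fits that left out 1 mouse each, and it was lost without any of the 3 young EOD mice, old AL mouse 2 or 4, or old EOD mouse 3, with FDR between 0.117 and 0.174.

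mt-Tp (ENSMUSG00000064372), the proline tRNA gene, which lies last among the annotated genes, was at 18.4, 23.5, 18.4 and 35.0 CPM in young AL and 34.9, 37.1 and 58.0 CPM in young EOD mice. It was at 35.3, 50.7, 55.0 and 56.7 CPM in old AL and 20.4, 50.5, 51.5 and 51.7 CPM in old EOD mice. Old AL mice lay above young AL mice by a narrow margin, whereas in EOD mice the ages overlapped. It rose by 1.05 (SE 0.252, FDR 0.0528) with age in AL mice. The value was 0.00 (SE 0.266, FDR 0.998) in EOD mice, and the interaction of age and diet was -1.04 (SE 0.365, FDR 0.9998), so that the difference between the diets did not pass the test.

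By lane, the level of mt-Tp ranged from 18.4 to 35.3 CPM in lane 1, from 18.4 to 58.0 CPM in lane 2 and from 35.0 to 56.7 CPM in lane 3, and the lanes held different mixes of the groups. With lane as a term, the increase in AL mice was 0.93 (FDR 0.0182) and the value in EOD mice was -0.25. Without young AL mouse 3, the value in AL mice was 0.94 (FDR 0.156). The call was lost in 6 of 15 fits that left out 1 mouse each, namely without young AL mouse 1, 2 or 3 or old AL mouse 2, 3 or 4, with FDR between 0.122 and 0.188. Among the other abundant tRNAs in AL mice, the values were 0.56 (FDR 0.408) for mt-Ta, 0.46 (FDR 0.362) for mt-Tc, 0.12 (FDR 0.883) for mt-Te and -0.12 (FDR 0.877) for mt-Tq. Without mt-Tp, tRNA counts per 1000 protein-coding counts were 2.24 to 3.26 in young and 2.50 to 3.40 in old mice.

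With the filter of the main fit, diet moved no mitochondrial gene past the test. In the comparisons of diet among the young mice, among the old mice and over both ages, and in the interaction of age and diet, edgeR and DESeq2 each called 0 of 22 mitochondrial genes. Of all 15864 genes edgeR called 0, or 0%, in each of these 4 comparisons. At an unadjusted p under 0.05 there were 3 mitochondrial genes for diet in young mice, 0 for diet in old mice, 2 for diet averaged over ages and 1 for the interaction. The same threshold held for 657, 409, 715 and 362 of all genes. The 3 genes in young mice were mt-Rnr1, mt-Rnr2 and mt-Tp.

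In young mice the EOD group was higher than the AL group by 0.30 (SE 0.097, FDR 0.996) for mt-Rnr1 and by 0.24 (SE 0.0825, FDR 0.996) for mt-Rnr2 on the log2 scale. Over 15 fits that left out 1 mouse each, the values lay between 0.20 and 0.35 for mt-Rnr1 and between 0.18 and 0.29 for mt-Rnr2. The CPM values given above did not overlap between the young EOD and young AL groups for either rRNA. The same held for mt-Tn, mt-Tr and mt-Tt, so that it held for 5 of the 22 mitochondrial genes, against 4.45% of all genes tested (706 of 15864). These tRNAs had few counts, with 5 to 28 per mouse for mt-Tn, 9 to 44 for mt-Tr and 14 to 56 for mt-Tt. Their nearest young AL and young EOD mice were at 1.37 and 1.54, 2.29 and 2.37, and 2.29 and 2.41 CPM. No unadjusted p of these tRNAs in edgeR's test was under 0.05. In old mice the values were 0.12 (95% interval -0.06 to 0.30) for mt-Rnr1 and 0.10 (95% interval -0.05 to 0.25) for mt-Rnr2, and the groups overlapped. The interaction was -0.18 (95% interval -0.44 to 0.08) for mt-Rnr1 and -0.14 (95% interval -0.36 to 0.08) for mt-Rnr2. mt-Tp differed between the young diet groups by 0.86 (SE 0.271, FDR 0.996). The 7 protein-coding genes differed with diet by -0.03 to 0.19 in young and by -0.08 to 0.05 in old mice, with 95% intervals from -0.26 to 0.50 and from -0.29 to 0.33.

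Levels of the 7 tested protein-coding and both rRNA genes were compared per length, as CPM per 1000 stretches of 50 bases not shared with another gene. On this scale mt-Co1 was highest with a mean over all mice of 12367, followed by mt-Cytb at 7367, mt-Nd1 at 6751, mt-Nd4 at 6323 and mt-Nd2 at 4332. The rRNAs followed at 3699 for mt-Rnr1 and 3358 for mt-Rnr2, ahead of mt-Nd6 at 2846 and mt-Nd5 at 2371. These are means over all mice, and the place of the rRNAs differed between groups, since in old EOD mice mt-Rnr1 at 4515 stood above mt-Nd2 at 4231. The values of mt-Co1 and mt-Nd4 depend on leaving out the shared stretches, and per 1000 bases of the whole gene they were 5851 and 2303. On that measure mt-Co1 came after mt-Cytb (7051) and mt-Nd1 (6406), and mt-Nd4 came after mt-Nd2 (3789), mt-Rnr1 (3509), mt-Rnr2 (3219.8) and mt-Nd6 (2577).

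**Figure D5:**
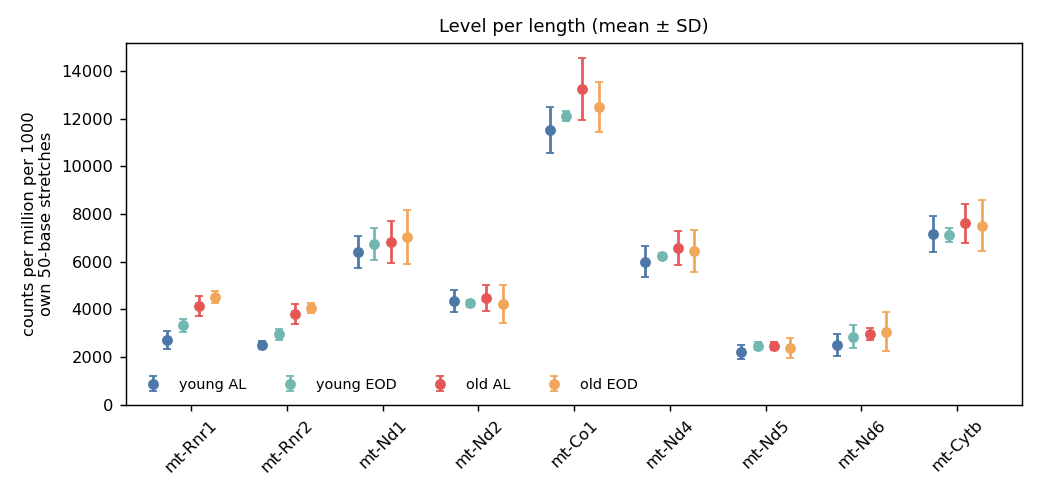
Level of the 7 tested protein-coding and both rRNA genes, as CPM per 1000 stretches of 50 bases not shared with another gene, mean ± SD in each of the 4 groups. mt-Co1 was highest at 12367 over all mice, and for mt-Rnr1 the group means ran from 2709.8 in young AL to 4515 in old EOD mice.

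The mix of counts among the 7 tested protein-coding genes was similar from mouse to mouse. The other 6 were near 0, and the counts of mt-Co1 and mt-Nd4 are uncertain in level, so this is not the mix of all messenger RNAs. mt-Co1 took 22.9% to 26.9% of the protein-coding counts, mt-Cytb 22% to 23.9%, mt-Nd1 15.5% to 18.3%, mt-Nd2 10% to 12.2%, mt-Nd5 9.64% to 11.8%, mt-Nd4 8.5% to 9.35% and mt-Nd6 3.14% to 4.68%. mt-Nd6, on the other strand, varied most relative to its share.

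Nuclear genes that act on these RNAs were set beside them. Of 69 names for mitochondrial transcription, RNA processing and decay, rRNA and tRNA modification, mtDNA replication and biogenesis, 65 were matched and 64 tested, and edgeR and DESeq2 called 0 in each of the 7 comparisons. At an unadjusted p under 0.05 there were 3 for age in AL mice (1 higher and 2 lower in old mice), 1 for age in EOD mice and 3 for age averaged over diets. Their median log2 difference with age in AL mice was 0.02, beside -0.01 for all genes tested. For age in EOD mice it was -0.01, beside 0.00 for all genes.

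In AL mice the log2 difference with age was 0.14 for Polrmt, the mitochondrial RNA polymerase, -0.07 for Tfam, which packages mtDNA and aids transcription, and -0.11 for the transcription factor Tfb2m. It was -0.19 (FDR 0.451) for Lrpprc and 0.16 for Slirp, whose products form a complex that stabilises mitochondrial messenger RNAs. For Mtpap, the mitochondrial poly(A) polymerase, it was -0.23 (FDR 0.458), for Elac2, which cuts the 3′ ends of tRNAs, -0.05, and for Pnpt1, the polynucleotide phosphorylase of RNA decay, -0.17. Ppargc1a, a coactivator of mitochondrial biogenesis, was at -0.10 and Polg, the mtDNA polymerase, at 0.08. None of these 10 passed the test.

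The nuclear subunits of the same respiratory complexes and ATP synthase did not pass the test either. Of 71 names, all were matched and 69 tested, and edgeR and DESeq2 called 0 in each of the 7 comparisons. An unadjusted p under 0.05 was reached by 0 for age in AL mice, 2 for age in EOD mice and 3 for age averaged over diets. Their median log2 difference was 0.01 with age in AL mice and 0.07 in EOD mice. In AL mice the extremes were -0.47 for Cox7c and -0.17 for Ndufb6 on one side and 0.31 for Uqcrq and 0.28 for Ndufab1 on the other, which encode subunits of cytochrome c oxidase, complex I, complex III and complex I.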

How the data were processed

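The authors sequenced whole-brain RNA of 15 mice (HiSeq2000, single-end reads of 50 bases), trimmed adapters and low-quality bases with custom software, mapped the result with STAR (version not given in the sources used here) to the GRCm38 assembly of Ensembl, and counted reads with featureCounts 1.5.0-p1 on Ensembl release 79, reverse-stranded, keeping primary alignments of mapping quality 5 or more. The deposited values are raw counts per gene without normalization. Library type is not stated in the sources used here. Mice were grouped by the labels.

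Everything from the counts on was computed here with edgeR 4.0.16 in R 4.3.3. One fit of 4 group means over all 15 mice (TMM, filterByExpr, quasi-likelihood F test, Benjamini-Hochberg over 15864 genes, FDR under 0.1) gave 7 comparisons, and the SE is the log2 difference divided by the square root of F. Chromosome alone decided which genes are members, but the choice to describe this chromosome, and the gene lists, were made with earlier results of these data known. Named genes were all protein-coding and rRNA genes, the called and the 5 highest tRNAs, and fixed nuclear genes of each list with the called ones and the extremes of the respiratory list. Shared stretches came from GENCODE M21 transcripts of GRCm38, which also gave the sequences. The fit was tested on simulated counts. The 95% intervals of log2 differences rest on the spread between mice. They were taken from the SE by a normal approximation, which makes them somewhat too narrow with so few mice. The limit for a count of 0 covers counting error only. DESeq2 1.42.0, other filters and scaling, lane, replicate number and leaving out each mouse were tried as alternatives. Other experiments of the study were not analysed here.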

Additional observations from a re-analysis of the deposited data

Results flagged for a closer look

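In 66 groups of 4 mice examined for a value far from the other 3, 5 stood out by Dixon's ratio, and chance alone gives about 1 in 20 groups. The rRNA share was 0.522% in young AL mouse 3, against 0.654% to 0.663% in the other young AL mice. This is the mouse with the fewest genes detected, and the age differences without it are given above. mt-Tp was at 20.4 CPM in old EOD mouse 1, against 50.5 to 51.7 CPM in the other old EOD mice, and that library was in lane 1, where mt-Tp ranged from 18.4 to 35.3 CPM. mt-Tq was at 27.8 CPM in old EOD mouse 3, against 20.5 to 21.5 CPM. mt-Nd2 was at 3347 CPM in young AL mouse 4, against 4109 to 4234 CPM in the others of its group. mt-Nd6 had 40.8 counts per 100 mt-Nd5 counts in young AL mouse 2, against 29.5 to 30.6. The causes were not tested.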

How the results depend on the processing

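The increase of mt-Rnr1 and mt-Rnr2 with age in AL mice and averaged over diets passed the threshold under every alternative run. Leaving out 1 mouse cannot move the mean of so few mice by as much as the spread between mice. With nuclear counts as the denominator, with the replicate block and within lanes, the 12 differences in class share moved by less than that spread. Of these differences, 4 changed sign when 1 mouse was left out, with ranges in percentage points of -0.0815 to 0.243 for protein-coding genes with age in EOD mice, -0.0112 to 0.22 with diet in young and -0.299 to 0.0259 with diet in old mice, and -0.000352 to 0.00152 for tRNA genes with age in EOD mice. Signs changed under other alternatives too. Within lanes, the protein-coding difference with diet in young mice went from 0.130 to -0.0192 points. The sign of that difference also changed with the replicate block. The tRNA difference with age in EOD mice went from 0.000469 to -0.000909 points within lanes. The 4 rRNA differences kept their sign. Keeping every gene with at least 1 count raised the mitochondrial genes called to 5 for age in AL mice, 5 for age averaged over diets, 1 for diet in young mice, 2 for diet averaged over ages and 1 for the interaction, and the genes called over the whole table to 444, 653, 26, 65 and 26. The genes added for age in AL mice were mt-Ta (FDR 0.00495) and mt-Nd6 (FDR 0.0627). Those added for age averaged over diets were mt-Ta (FDR 0.0479), mt-Nd6 (FDR 0.059) and mt-Tp (FDR 1.5e-07), while mt-Tt was lost (FDR 0.106). Diet averaged over ages gained mt-Rnr1 (FDR 0.0551) and mt-Tp (FDR 0.049). Diet in young mice gained mt-Tp (FDR 8.69e-08), and so did the interaction (FDR 5.4e-06). For diet in young mice, the log2 difference of mt-Tp was 0.855 with SE 0.124 in this fit, against SE 0.271 in the main fit. The cause was not tested. For age in EOD mice, 1 gene was called with lane as a term, with the replicate block and at FDR 0.05. Leaving out each mouse in turn gave 2 to 3 calls for age in AL mice, 0 to 2 in EOD mice (0 without young EOD mouse 1 or 3), 2 to 4 averaged over diets and 0 in the diet comparisons and the interaction.

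Same-numbered mice did not deviate together (21 pairs, correlations -0.113 to 0.113), so replicate numbers were not taken as pairs. With the replicate block, mt-Rnr1 in EOD mice had FDR 0.227, mt-Tt averaged over diets had FDR 0.126, and the differences with age in EOD mice changed sign to 0.0177 for mt-Nd2 and to -0.17 for mt-Tp. For mt-Tp in EOD mice the sign also changed with lane as a term (-0.25) and with only the groups compared (-0.00182).

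Signs also changed, without a call, when single mice were left out, for age in EOD mice in mt-Nd1 (-0.0382 to 0.145), mt-Nd2 (-0.134 to 0.067), mt-Nd4 (-0.0414 to 0.11), mt-Nd5 (-0.17 to 0.00987), mt-Nd6 (-0.0939 to 0.25), mt-Cytb (-0.00826 to 0.14) and mt-Tp (-0.14 to 0.27), and for age in AL mice in mt-Nd2 (-0.0256 to 0.10), mt-Tq (-0.23 to 0.0425) and mt-Te (-0.0644 to 0.23). Most tRNAs have few counts, which limits their precision.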
